A study of Homo sapiens with 4 samples.

Results

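Ribosome biogenesis and nucleolar genes were followed in RD cells, an established line of fusion-negative rhabdomyosarcoma, a tumour with features of skeletal muscle. The group was defined by name and holds 52 genes that build ribosomes or shape the nucleolus. The deposited table of 18375 genes has a row for 50 of them, and BOP1 and DDX52 were not analysed here. Vincristine-resistant RD cells gave 2 libraries and untreated parental control cells gave 2, all of the genotype labelled WT. The resistant cells were selected from the parental line with vincristine, which stops mitosis by acting on tubulin. Selection began at 1 to 1.5 nM, a dose lethal to roughly 80 to 90% of cells, and it was raised in steps of 10 to 20% over 9 to 12 months until the half-maximal inhibitory concentration was at least 100-fold higher. The labels do not say whether replicates were separate cultures or separate selections, or whether vincristine was present at harvest, so every p-value reflects only how far these libraries differ within a group, and that spread may be technical.

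A ribosome starts in the nucleolus, where RNA polymerase I copies the ribosomal RNA genes into one long precursor. Small nucleolar RNAs with their protein partners, the snoRNPs, guide chemical marks onto that precursor, and a large assembly of factors called the small subunit processome folds and cuts the part that becomes the small subunit. Other factors build the large subunit. Many of these genes are known targets of the transcription factor MYC, which the study names in its title, and nucleolar size is a classical mark of growing tumour cells. MYC itself had 15173 and 16258 normalized counts in the resistant libraries and 11591 and 11427 in the parental ones. Its log2 fold change was 0.45 (SE 0.03, limma adjusted p = 2.62e-12). The 20 tested genes nearest to MYC on its chromosome, outside the group, had a median log2 fold change of 0.27.

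The genes did not move as one block. In the resistant cells 14 of the 50 were higher, 24 were lower and 12 did not pass the test, which was limma on log2 normalized counts with Benjamini-Hochberg adjustment over all 18330 tested genes at a threshold of 0.05. The background was high, since 66.9% of all tested genes passed, 32.7% as higher and 34.2% as lower. Among the 8842 genes with a mean of 1000 to 150000 normalized counts, a range that holds 49 of the 50, 80.3% passed, against 76% of the 50. The median log2 fold change of the 50 genes was -0.08, and that of all tested genes was 0.00. All 50 passed the filter on low values, and the fewest reads of any of them in a library was 235, for DDX47. Changes were small in size. Only 3 of the 50 (NOP58, UTP20 and RRP1) moved by 1.5-fold or more, which is 6% against 32.0% of all tested genes and 20.1% of genes in that range. The largest change in either direction was that of NOP58, with a log2 value of 0.90, short of 2-fold.

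Tested against 1.2-fold instead of 0 (limma treat), 9 of the 50 were higher and 7 lower, beside 37.1% of all tested genes, 18.4% as higher and 18.6% as lower. The same counts, 9 and 7, came from edgeR with a dispersion fixed at 0.01, an assumed spread between cultures wider than that of these libraries, and there the background was 43.3%, with 22.2% higher and 21.2% lower. The replicates differed little beyond counting error, with a coefficient of variation of 2.38% from the common dispersion of edgeR. Differences well under 1.2-fold therefore passed against 0. The resistant pair differed more than the parental pair, with a chi-square per gene, a spread relative to counting error, of 4.00 against 1.61. The fit used one spread for both groups. Subtracting the level of the chromosomal neighbourhood, described after the role groups, turned 8 called genes to the other sign with a call, UBTF, FBL, NOP56, WDR43 and PES1 to higher and RRP12, NOC3L and WDR12 to lower.

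**Figure D1:**
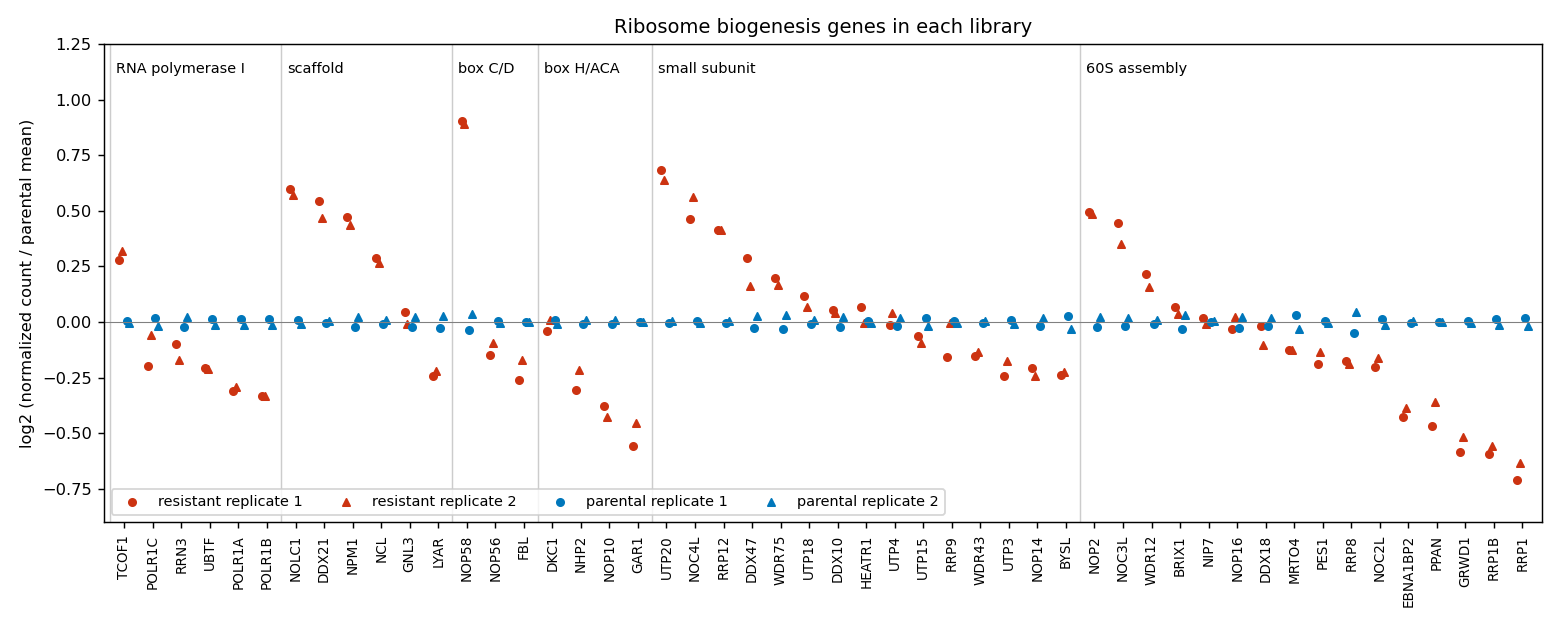
Each gene is a column, and the y axis gives the log2 of its normalized count divided by the parental mean. Red points are the 2 resistant libraries, blue points the 2 parental ones, and genes are grouped by role and sorted by log2 fold change. By fold change NOP58 stands highest, at 0.90, and RRP1 lowest, at -0.67.

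The libraries held 58861281 to 67690557 reads over the genes of the table. The labelled tumour type was checked against skeletal muscle genes, of which 8 of 10 had a row (MYF5 and MYF6 had none), with summed levels of 164948 and 169434 normalized counts in resistant and 95084 and 94575 in parental libraries, and 7 were called higher. Of 6 epithelial markers all had a row and 3 were called higher, with sums of 14718 and 14904 in resistant and 4833 and 4788 in parental libraries, nearly all from the keratins KRT18 and KRT8. Of 6 haematopoietic markers 2 had a row (LYZ and CD14, sums of 63.8 and 70.6 against 35.8 and 44.7), and of 4 endothelial markers 0 had one. LYZ was called higher on only 6 to 27 reads in a library, and CD14 was not called. The part of these shifts in the results was not tested, and in bulk RNA fewer cells of a type and less RNA per cell cannot be told apart.

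RNA polymerase I and its factors were mostly lower. Of 6 genes, 5 fell and 1 rose, with a median log2 fold change of -0.17. POLR1A, the largest catalytic subunit, had 14258 and 14426 normalized counts in the resistant libraries against 17833 and 17537 in the parental ones. POLR1B, its catalytic partner, had 5268 and 5262 in resistant and 6692 and 6568 in parental libraries. Both resistant values lay under both parental values for each subunit, and the log2 fold changes were -0.30 (SE 0.03) and -0.33 (SE 0.03). POLR1C, a subunit shared with RNA polymerase III, had 2198 and 2423 in resistant and 2555 and 2487 in parental libraries, and its fall of 0.13 on the log2 scale (SE 0.05, limma adjusted p = 0.0205) was the least certain of the group. It no longer passed under DESeq2 (DESeq2 adjusted p = 0.0859), with libraries scaled to the same total (limma adjusted p = 0.0777), without resistant replicate 1 (limma adjusted p = 0.239), or without parental replicate 1 (limma adjusted p = 0.171) or 2 (limma adjusted p = 0.0557).

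UBTF, which binds the ribosomal RNA genes and keeps them open, had the highest level per length of the group over all 4 libraries, though TCOF1 was above it in resistant cells, with 1295 against 1243 normalized counts per kilobase. UBTF had 8706 and 8673 normalized counts in resistant and 10135 and 9963 in parental libraries, and a log2 fold change of -0.21 (SE 0.03). RRN3, the factor that brings the polymerase to its promoter, had a log2 fold change of -0.13 (SE 0.04), a call that was lost without parental replicate 2 (limma adjusted p = 0.0973), and pseudogenes named after it exist, so its reads may have been split. The riser was TCOF1, which encodes treacle, a nucleolar protein that joins transcription to processing of ribosomal RNA and is mutated in Treacher Collins syndrome. It had 14605 and 15016 in resistant against 12099 and 11990 in parental libraries, a log2 fold change of 0.30 (SE 0.03), with both resistant values on top. Against 1.2-fold the smallest adjusted p of the 6 genes was that of POLR1B (limma treat adjusted p = 0.0697), so the calls of the whole group ended there.

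The abundant nucleolar scaffold genes rose. Of 6 genes that organize the nucleolus, 4 rose, 1 fell and 1 did not pass, and the median of 0.36 was the highest of the 6 role groups. NOLC1, a chaperone of snoRNPs, had 29475 and 28941 normalized counts in resistant and 19619 and 19384 in parental libraries (log2 fold change 0.58, SE 0.03). DDX21, an RNA helicase of ribosomal RNA transcription and processing, had 32419 and 30715 against 22123 and 22295 (0.51, SE 0.03). NPM1, nucleophosmin, the main protein of the granular outer nucleolus, had 113245 and 110220 in resistant against 80355 and 82773 in parental libraries (0.45, SE 0.03). For each of the 3, the lower resistant value was above the higher parental one, and all 3 also passed against 1.2-fold. GENCODE lists 45 pseudogenes named after NPM1, so its count is uncertain where reads match several copies.

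NCL, nucleolin, rose as well, by a log2 fold change of 0.27 (SE 0.03), with 148090 and 145919 in resistant and 120768 and 122223 in parental libraries, but did not pass against 1.2-fold (limma treat adjusted p = 0.598). GNL3, nucleostemin, a GTPase of the nucleolus in stem and tumour cells, had 9774 and 9412 in resistant and 9325 and 9645 in parental libraries. Its groups overlapped and it did not pass (0.02, SE 0.03, limma adjusted p = 0.679). LYAR, a nucleolar factor of ribosomal RNA processing, fell, with 3070 and 3117 against 3566 and 3705 (log2 fold change -0.23, SE 0.04). NPM1 and NCL weighed heavily on the group of 50, which took 1.04 and 1.02% of the reads in resistant and 0.897 and 0.904% in parental libraries. Without that pair the other 48 took 0.625 and 0.620% in resistant and 0.589 and 0.591% in parental libraries.

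**Figure D2:**
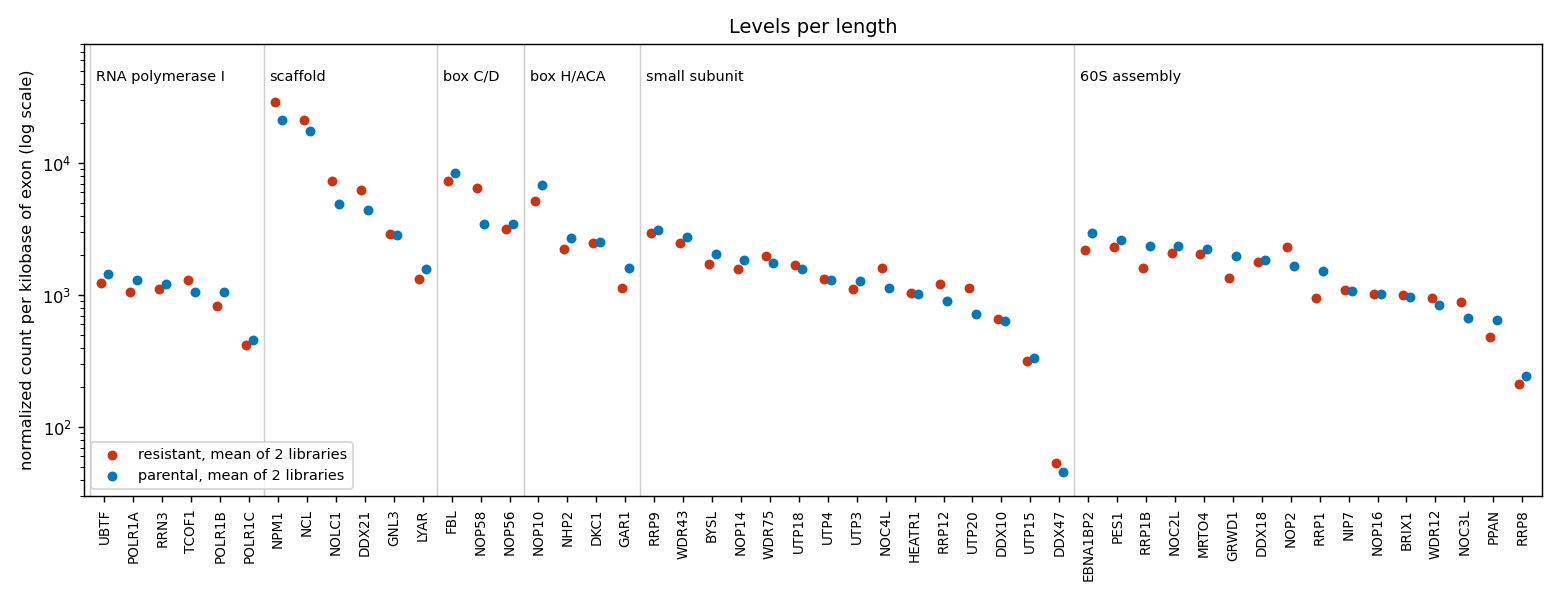
The y axis, on a log scale, gives normalized counts per kilobase of exon, averaged over the 2 libraries of a group, red for resistant and blue for parental cells, with genes grouped by role. NPM1 and NCL stand above all other genes shown, and DDX47 stands lowest, at 53.7 in resistant and 45.9 in parental cells.

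Levels per kilobase were divided by the merged length of all annotated exons, which can exceed that of the expressed RNA. Ranks between genes therefore depend on the annotation, here and elsewhere. On this scale NPM1 had 29188 in resistant and 21307 in parental cells and NCL had 21216 and 17534. The order below them changed with the group. FBL led in parental cells at 8447, ahead of NOP10 at 6815, and in resistant cells NOLC1 (7357) and FBL (7279) were followed by NOP58 (6486) and DDX21 (6288). DDX47, a helicase, was far below the rest, and 36.5% of its exonic bases are shared with APOLD1 on the same strand, so its low count is uncertain.

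The core proteins of the box C/D snoRNP, which places methyl groups on ribosomal RNA, split. NOP58, one of its paired scaffold proteins, had 21523 and 21270 normalized counts in resistant and 11209 and 11777 in parental libraries. NOP56, the other scaffold protein, had 16739 and 17371 in resistant and 18657 and 18485 in parental libraries. FBL, fibrillarin, the methyltransferase itself, had 15308 and 16328 in resistant and 18349 and 18363 in parental libraries. NOP58 was therefore higher in both resistant libraries, with a log2 fold change of 0.90 (SE 0.03, limma adjusted p = 2.00e-19), and both partners were slightly lower, with -0.12 (SE 0.03) and -0.22 (SE 0.03). Per kilobase, NOP58 stood at 2.10 and 2.00 times NOP56 in the resistant libraries and at 0.983 and 1.04 times NOP56 in the parental ones. The level of such a ratio, here and for other pairs, depends on the annotated exon lengths, 3.299 kb for NOP58 and 5.398 kb for NOP56. Only its change between groups does not. A permutation of 2 libraries against 2 cannot go below a two-sided exact p of 0.333, and no other test of the ratio was run. NOP56 and FBL did not pass against 1.2-fold. NOP58 lies on chromosome 2 from 202265716 to 202303666 on the plus strand (GRCh38, ENSG00000055044) and NOP56 on chromosome 20 from 2652145 to 2658393 (ENSG00000101361).

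The box H/ACA snoRNP, which turns uridines into pseudouridines and also belongs to telomerase, was lower in its small subunits and level in its enzyme. GAR1 had 2229 and 2394 normalized counts in resistant and 3278 and 3287 in parental libraries. NOP10 had 2902 and 2808 in resistant and 3749 and 3802 in parental libraries. NHP2 had 3288 and 3503 in resistant and 4042 and 4097 in parental libraries. All 3 were lower in both resistant libraries, with log2 fold changes of -0.51 (SE 0.04), -0.40 (SE 0.04) and -0.26 (SE 0.04). DKC1, dyskerin, the pseudouridine synthase, had 10282 and 10623 in resistant and 10640 and 10501 in parental libraries, and its groups overlapped (-0.02, SE 0.03, limma adjusted p = 0.665). Per kilobase, GAR1 was at 0.445 and 0.463 times DKC1 in the resistant libraries and at 0.633 and 0.643 times DKC1 in the parental ones. GAR1 and NOP10 also passed against 1.2-fold and NHP2 did not (limma treat adjusted p = 0.860). RMND5B on the opposite strand shares 27.4% of the exonic bases of NHP2 and no strand setting was stated, so that value is uncertain.

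Factors of the small subunit processome went both ways. Of the 15 with a row, 5 rose, 4 fell and 6 did not pass, with a median of 0.03. UTP20, a very large scaffold protein, had 11612 and 11241 normalized counts in resistant against 7213 and 7241 in parental libraries (0.66, SE 0.03). NOC4L, whose yeast counterpart binds that of NOP14, had 3163 and 3386 against 2298 and 2289 (0.51, SE 0.04). RRP12, linked in yeast to export of precursor subunits, rose by 0.41 (SE 0.03), and these 3 were the members of the group that passed against 1.2-fold. WDR75 (0.18, SE 0.03) and UTP18 (0.09, SE 0.04) rose less, and UTP18 lost its call under DESeq2 (DESeq2 adjusted p = 0.0801), without resistant replicate 1 (limma adjusted p = 0.0700), and without parental replicate 1 (limma adjusted p = 0.234) or 2 (limma adjusted p = 0.138).

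Among those that fell, BYSL, bystin, a factor of late small subunit maturation, had 3875 and 3919 normalized counts in resistant and 4669 and 4485 in parental libraries (-0.23, SE 0.04). NOP14 had 5652 and 5509 in resistant and 6426 and 6601 in parental libraries (-0.22, SE 0.04), and an antisense gene shares 17.1% of its exonic bases. UTP3 (-0.21, SE 0.04) and WDR43 (-0.14, SE 0.03) were the other two. RRP9, a protein of the U3 snoRNP with the highest level per length of the group, had 4425 and 4923 in resistant and 4941 and 4925 in parental libraries and did not pass (-0.08, SE 0.04, limma adjusted p = 0.0952). Its resistant libraries differed from each other more than the groups did, and without resistant replicate 2 the log2 value was -0.16 and passed (limma adjusted p = 6.56e-06). DDX47 (0.22, SE 0.11) passed without resistant replicate 2 (0.29) and with libraries scaled to the same total (0.26), and HEATR1 (0.03, SE 0.03) passed without resistant replicate 2 (0.07). DDX10 (0.05, SE 0.04) passed with the same-total scaling (0.08), and UTP4 and UTP15 did not pass in any scaling. LGALS8 on the opposite strand shares 23.2% of the exonic bases of HEATR1, so the value of HEATR1 is uncertain.

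Factors of the large subunit were more often lower. Of 16 with a row, 9 fell, 3 rose and 4 did not pass, with a median of -0.14, and 5 fell and 2 rose against 1.2-fold. RRP1 had 3950 and 4160 normalized counts in resistant and 6542 and 6386 in parental libraries (-0.67, SE 0.04). RRP1B, its paralog, had 9079 and 9311 in resistant and 13831 and 13560 in parental libraries (-0.57, SE 0.03). Both are human counterparts of one yeast processing factor, and they lie near each other on chromosome 21, RRP1B from 43659548 to 43696079 and RRP1 from 43789513 to 43805293, both on the plus strand. Their ratio per kilobase, RRP1 over RRP1B, was 0.590 and 0.606 in resistant and 0.641 and 0.638 in parental libraries. GRWD1, a histone chaperone that also binds a ribosomal protein, followed with a log2 fold change of -0.55 (SE 0.03). EBNA1BP2, the most abundant of the group per length over all 4 libraries but behind PES1 and NOP2 in resistant cells, had 7764 and 7999 in resistant and 10422 and 10463 in parental libraries (-0.41, SE 0.03). PPAN fell by the same amount (-0.41, SE 0.05), but 56.0% of its exonic bases belong also to the read-through gene PPAN-P2RY11, and CFAP57 shares 18.8% of those of EBNA1BP2, so both are uncertain.

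The risers of that group were NOP2, which methylates large subunit RNA, NOC3L and WDR12. NOP2 had 10917 and 10867 normalized counts in resistant and 7626 and 7881 in parental libraries (0.49, SE 0.03), with 54.4% of its exonic bases shared with an overlapping gene on the same strand. NOC3L had 4104 and 3838 in resistant and 2973 and 3053 in parental libraries (0.40, SE 0.04). WDR12 and PES1 form one complex with BOP1, and they moved apart by a small amount, WDR12 by 0.19 (SE 0.03) and PES1 by -0.16 (SE 0.03). Neither passed against 1.2-fold. NOC2L, which also restrains p53 (-0.18, SE 0.03), RRP8, a methyltransferase of large subunit RNA (-0.18, SE 0.05), and MRTO4 (-0.13, SE 0.04) fell slightly. With parental replicate 2 left out RRP8 no longer passed (limma adjusted p = 0.131), nor did MRTO4 with parental replicate 1 left out (limma adjusted p = 0.154). BRIX1, NIP7, NOP16 and DDX18 had values between -0.06 and 0.05 and did not pass. COG8 on the opposite strand shares 20.2% of the exonic bases of NIP7, so that value is uncertain. DDX18 passed as lower without resistant replicate 1 (-0.10), and BRIX1 as higher with the same-total scaling (0.09).

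**Figure D3:**
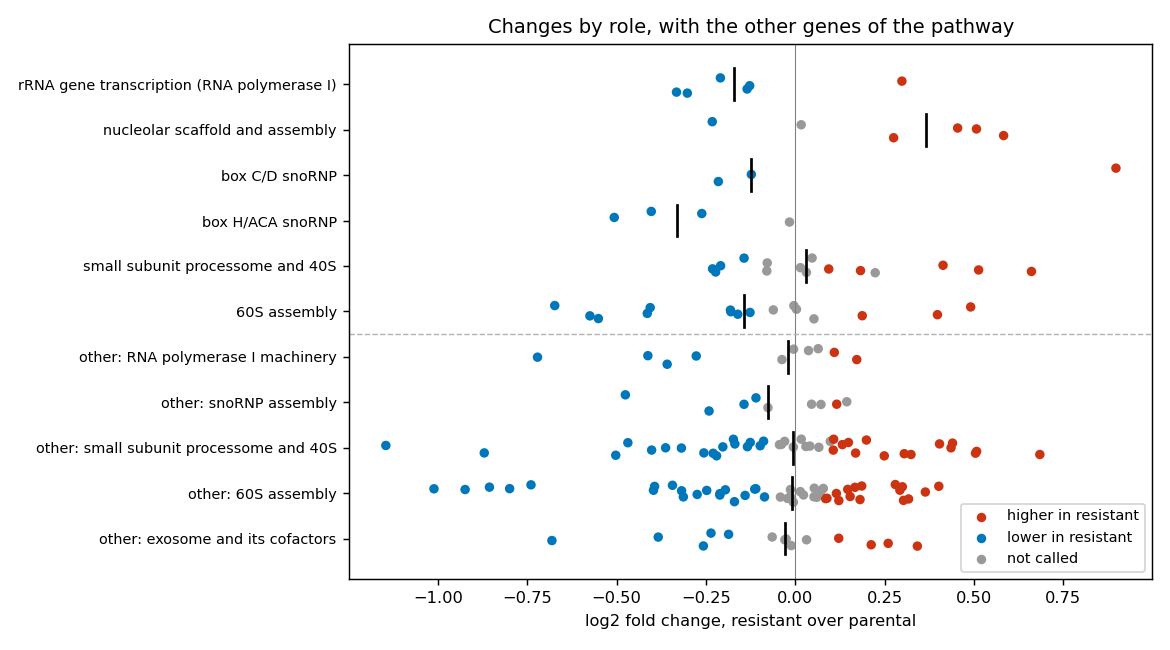
Each point is a gene placed by its log2 fold change, resistant over parental, red where called higher, blue where called lower and grey where not called, and black bars are medians. The 6 role groups of the 50 genes stand above the dashed line and the 5 lists of other genes of the pathway below it, and every group except the box H/ACA genes holds red points.

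Other genes of the pathway, chosen by role and not among the 52, also went both ways. Of 122 with a row, 38 rose, 50 fell and 34 did not pass, with a median of -0.01, and 72.1% were called, beside 66.9% of all tested genes and 80.3% of those with a mean of 1000 to 150000 normalized counts. Against 1.2-fold, 8 were higher and 18 lower. Changes were mostly small here too, and 10 of the 122 moved by 1.5-fold or more, so small size was not particular to the 50. Among 10 further genes of the polymerase machinery, 2 rose and 4 fell, from POLR1E (0.17, SE 0.04) to POLR1F (-0.72, SE 0.04), a subunit listed under its older name TWISTNB. POLR1F had 3234 and 3155 normalized counts in resistant and 5169 and 5367 in parental libraries. Of 9 snoRNP assembly genes, 1 rose, SNU13 (0.12, SE 0.03), and 4 fell, RUVBL2 the most (-0.48, SE 0.03). Of 41 further small subunit genes 15 rose and 17 fell, from KRR1 (0.68, SE 0.04) to NOL11 (-1.15, SE 0.03). NOL11 had 7116 and 6922 in resistant and 15453 and 15607 in parental libraries, and both resistant values lay far under both parental ones. Of 48 further large subunit genes 16 rose and 20 fell, from DDX51 (0.40, SE 0.04) to FTSJ3 (-1.01, SE 0.03), and of 14 genes of the RNA exosome 4 rose and 5 fell, from EXOSC1 (0.34, SE 0.04) to DIS3 (-0.68, SE 0.04).

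Fold changes of the 50 genes went with those of the genes around them on the chromosome. For each of the 50, the median log2 fold change of the 20 nearest tested genes outside the group was taken, over spans of 0.338 to 7.84 Mb. Across the 50 genes Pearson's r between a gene and its neighbours was 0.77, where nearby members share some neighbours and all points share the 4 libraries. The same r was 0.66 across the 122 other genes of the pathway, 0.47 across 8748 genes with a mean of 1000 to 150000 normalized counts, and 0.32 across all genes. Of the 38 called genes, 32 had the sign of their neighbours. That share was not computed over all called genes, so it is not read as particular to the 50. The 6 exceptions were NPM1, higher beside a median of -0.03, and RRN3, NHP2, NOP10, RRP8 and NOC2L, lower beside medians of 0.00 to 0.19. All 4 members on chromosome 10 (NOLC1, DDX21, RRP12 and NOC3L) rose, with neighbour medians of 0.35 to 0.68. On chromosome 12, UTP20, NOC4L and NOP2 rose and DDX47 did not pass, with neighbour medians of 0.17 to 0.52. All 3 on chromosome 19 (FBL, GRWD1 and PPAN) fell beside medians of -0.39 to -0.32, and all 4 on chromosome 4 (GAR1, NOP14, UTP3 and LYAR) fell beside medians of -0.28 to -0.09. RRP1 and RRP1B fell beside medians of -0.54 and -0.53. On chromosome 1, EBNA1BP2, MRTO4 and NOC2L fell and HEATR1 did not pass, beside medians of -0.06 to 0.27, and on chromosome 2, 4 of 8 members rose and 3 fell, beside medians of -0.32 to 0.38. On chromosome 5, 2 of 6 members rose, 1 fell and 3 did not pass, beside medians of -0.03 to 0.56. On chromosome 16, RRN3 fell and UTP4 and NIP7 did not pass, beside medians of 0.03 to 0.10.

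**Figure D4:**
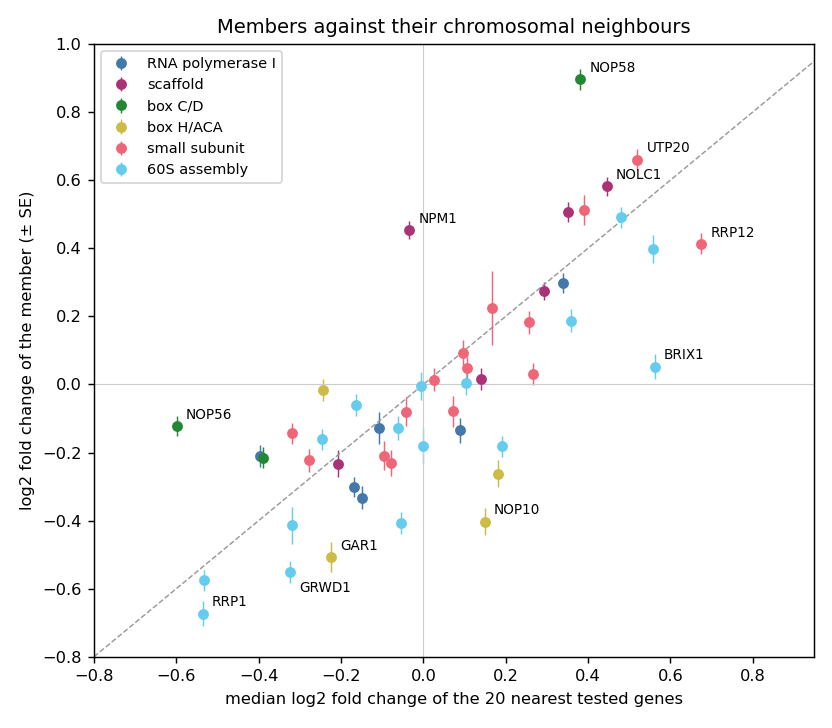
Each point is one of the 50 genes, with the median log2 fold change of its 20 nearest tested genes on the x axis and its own log2 fold change with SE on the y axis, coloured by role. The dashed line marks equal values, and NOP58, NPM1 and NOP56 lie well above it and BRIX1, NOP10 and GAR1 below it.

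With the neighbour median subtracted, 13 of the 50 were higher and 21 lower, beside 64.9% of all genes with neighbours, 31.8% as higher and 33.1% as lower, and these p-values take the median as known. Of the 38 called genes, 19 passed with the same sign, 8 passed with the opposite sign and 11 no longer passed, and 7 further genes passed. NOP58 stayed higher at 0.52, and NPM1, whose neighbours had a median of -0.03, at 0.49. Other large changes shrank, UTP20 from 0.66 to 0.14, NOLC1 from 0.58 to 0.14 and DDX21 from 0.51 to 0.16. RRP1 went from -0.67 to -0.14. All of these still passed with the same sign. The small H/ACA proteins stayed lower, NOP10 at -0.55, NHP2 at -0.44 and GAR1 at -0.28. In the box C/D snoRNP, NOP56 was at 0.48 and FBL at 0.17, so both lay above their neighbours, as NOP58 did. These are differences from the neighbours. The counts of NOP56 and FBL were still lower in the resistant libraries, and the split from NOP58 in those counts remained. UBTF turned to 0.19 and DKC1, not called before, to 0.23, while RRP12 turned to -0.26 and NOC3L to -0.16. NOP2, NCL, TCOF1 and RRP1B were within 0.05 of their neighbours and no longer passed. BRIX1, not called before, had -0.51 beside neighbours whose median was 0.56. Among the other genes of the pathway, NOL11 (0.24) and FTSJ3 (0.12) turned to higher beside neighbour medians of -1.39 and -1.13, EXOSC1 turned to -0.45, KRR1 (-0.01), DDX51 (0.01), RUVBL2 (0.06) and DIS3 (0.05) no longer passed, and POLR1F stayed lower at -0.86.

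Promoters were read from RefSeq (GRCh38.p14), as the 250 bases before the start annotated there, and 44 of the 50 genes had an entry. DDX18, NOLC1, NOP58, RRP12, RRP1B and TCOF1 had none there. They are shown for the pair of genes with the highest log2 fold changes among those with an entry, UTP20 and NOC4L, and the pair with the lowest, RRP1 and GRWD1. Each runs 5′ to 3′, and capitals mark a match to the MYC-type E-box CACGTG, the ETS-type motif CCGGAAG or an NRF1-type palindrome of 10 letters, on either strand.
UTP20, chr12:101279855-101280104, plus strand: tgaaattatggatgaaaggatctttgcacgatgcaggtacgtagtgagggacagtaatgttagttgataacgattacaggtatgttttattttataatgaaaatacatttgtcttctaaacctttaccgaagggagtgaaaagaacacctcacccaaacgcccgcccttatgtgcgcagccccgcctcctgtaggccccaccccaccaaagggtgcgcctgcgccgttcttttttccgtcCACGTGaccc
NOC4L, chr12:132144207-132144456, plus strand: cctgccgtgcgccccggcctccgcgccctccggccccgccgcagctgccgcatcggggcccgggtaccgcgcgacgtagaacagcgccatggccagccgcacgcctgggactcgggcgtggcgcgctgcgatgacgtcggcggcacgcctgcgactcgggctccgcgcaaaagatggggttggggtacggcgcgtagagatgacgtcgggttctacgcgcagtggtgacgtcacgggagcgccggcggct
RRP1, chr21:43789327-43789576, plus strand: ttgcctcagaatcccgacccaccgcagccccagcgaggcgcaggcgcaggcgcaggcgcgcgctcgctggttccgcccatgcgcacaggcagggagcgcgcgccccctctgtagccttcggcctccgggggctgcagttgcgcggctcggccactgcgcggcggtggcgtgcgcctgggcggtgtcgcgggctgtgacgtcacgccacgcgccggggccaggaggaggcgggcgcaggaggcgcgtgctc
GRWD1, chr19:48445733-48445982, plus strand: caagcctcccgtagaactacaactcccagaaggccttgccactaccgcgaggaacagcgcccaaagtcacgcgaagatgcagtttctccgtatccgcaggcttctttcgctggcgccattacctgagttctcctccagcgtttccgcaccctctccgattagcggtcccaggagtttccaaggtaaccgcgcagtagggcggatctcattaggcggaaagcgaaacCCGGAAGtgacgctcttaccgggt

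GENCODE 29 places some starts further upstream, so 210 of the 250 bases shown for GRWD1, its marked motif among them, 64 of those for RRP1 and 9 of those for NOC4L lie inside the gene as annotated there. The E-box stands in the window of UTP20, close to its start, and the ETS-type motif in that of GRWD1, and the windows of NOC4L and RRP1 hold none of the 3 motifs. No matches overlap in these 4 windows. Over the 44 promoters, 5 (11.4%) held the E-box, against 6.49% of 27305 promoters in the table and 8.66% of the 11469 promoters of tested genes. Those 5 were of UTP20 and UTP18, which rose, EBNA1BP2 and NOP10, which fell, and UTP4, which did not pass. The ETS-type motif was in 16 of 44 (36.4%), against 8.82% of all promoters and 14.7% of those of tested genes, and it was found in 3 of 10 genes that rose, 8 of 23 that fell and 5 of 11 that did not pass. The NRF1-type motif was in 3 of 44 (6.82%), against 1.13% of all promoters and 1.88% of those of tested genes. A match describes these letters only.

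A minority of the genes host snoRNA genes. In GENCODE 29, 7 of the 50 genes contain 25 snoRNA genes on their own strand, with 6 in GNL3, 5 in NOP56, 4 in NOP58, 3 each in NCL and WDR43, and 2 each in DKC1 and PPAN. These hosts included 2 that rose (NOP58 and NCL), 3 that fell (NOP56, WDR43 and PPAN) and 2 that did not pass. The snoRNAs themselves were not analysed here.

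At the same threshold the authors' deposited table has 13 of the 50 genes as higher and 23 as lower, and 48 had the same call as here. POLR1C and UTP18 were the exceptions, called here and not there. The log2 fold changes in the authors' deposited table differed from those here by at most 0.0028 for any of the 50.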

How the data were processed

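Messenger RNA selected with oligo(dT) beads was sequenced from 4 RD libraries. The submitters' processing notes list GRCh38 as build and name STAR 2.5.2b, bcl2fastq 2.17, DESeq2, and Subread 1.5.2 with featureCounts. The sources used here do not give the annotation or the strand setting. The deposited library columns are a signal of normalized counts, and their steps are those of gene counts divided by one factor per library. Dividing each column by the value of 1 read gave whole reads for 100% of values (tolerance 0.01). The log2 fold changes and the p-value columns are those of the authors, per the file headers.

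A gene was tested where 2 or more libraries reached 10. Values were put on a log2 scale after adding 1 (the pseudocount) and fitted on group alone by limma 3.58.1 in R 4.3.3, with an intensity trend. Fold changes are on this scale, which understates changes of low genes. The plan named a count test for raw counts and this fit for normalized values. Checks used edgeR 4.0.16 and DESeq2 1.42.0 on recovered reads. Positions and exon lengths come from GENCODE 29. Members, role groups, lists, motifs and alternatives were chosen with earlier results of these data known. Values by library are given, per role group, for the 2 highest and 2 lowest log2 fold changes, all genes of a group of 4 or fewer, and the gene most abundant per kilobase, and of each other list the called extremes are named. NCL and GRWD1, and further genes with values, were named after their values were seen. Planned protein comparisons were not made. Counting error is small at these depths, and statements on it cover counting only. Besides NPM1 and RRN3, pseudogenes are named after NOP56, NCL, NHP2, PES1, NOC2L, NIP7, DDX10, DDX18, LYAR and BRIX1, so their reads may be split.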

Additional observations from a re-analysis of the deposited data

How the results depend on the processing

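Pseudocounts of 0.5 and 5, no filter, a filter at 50, TMM scaling, edgeR's quasi-likelihood test and removal of a trend over GC content and length left each of the 50 genes on its side of the threshold, and the called ones kept their sign. Same-total scaling shifted the median of all genes by 0.03 on the log2 scale and gave 17 higher and 23 lower. Leaving out each library in turn gave 13 to 16 higher and 21 to 25 lower of the 50, 27 to 43 higher and 41 to 50 lower of the 122 other genes, and 5330 to 5560 higher and 5365 to 6323 lower of all genes, with 1 library in one group assumed to vary like the rest. Across pseudocount, filter, scaling, tool, trend and left-out libraries, 39 of 50 kept their call, and 33 of these were called. Limma treat against 1.2-fold gave 3380 higher and 3414 lower of all genes, 9 and 7 of the 50, and 8 and 18 of the other genes. A dispersion of 0.01 gave 4063 and 3880 of all genes, 9 and 7 of the 50, and 9 and 20 of the other genes. With the replicate number as a block, 14 of the 50 were higher and 24 lower, 36 and 49 of the other genes, and 5926 and 6218 of all genes. The labels do not tie equal numbers to a shared source, and replicate 1 minus 2 correlated between groups at -0.03, so the numbers are not taken as pairs. Removal of the neighbour median turned the sign of 22 genes, of which UTP4, DDX10 and NOP16 passed neither before nor after. The other 19 had log2 values of BRIX1 -0.51, RRP12 -0.26, HEATR1 -0.23, WDR12 -0.17, NOC3L -0.16, GNL3 -0.12, NIP7 -0.10, WDR75 -0.0745, TCOF1 -0.0413, NCL -0.0172, UTP18 -0.00187, NOP14 0.054, PES1 0.0861, DDX18 0.10, FBL 0.17, WDR43 0.18, UBTF 0.19, DKC1 0.23, NOP56 0.48. The cause was not tested.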
